A study of Mus musculus with 6 samples.

Results

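Splicing of 9 genes of the citric acid cycle was compared between the hepatocytes of mice on a high-fat and on a low-fat diet. The genes are Fh1, Cs, Idh3a, Idh3b, Idh3g, Ogdh, Suclg1, Suclg2 and Mdh2, and every splicing variation whose gene name is among them was taken. They held 38 of the 26910 local splicing variations (LSVs) present for both diets, with 90 of 68110 entries. In an LSV several junctions, or junctions and a retained intron, start or end at a common exon, and each of these choices is called an entry here. The genes were grouped around Fh1 because of its change in the authors' deposited table of events found by JUM, a splicing program. That change is therefore given as a description, and nothing is supported with it.

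The hepatocytes came from livers of male C57BL/6J mice without any genetic change named in the labels. Every mouse was raised on chow (13.5% fat). At 8 weeks of age the diet became either low-fat (LFD, 10% fat) or high-fat (HFD, 60% fat) and stayed so for 12 weeks. There were 3 mRNA libraries per diet, sequenced as paired reads. The tables hold no value per library, so no spread between libraries could be given. The labels number the libraries of a diet but do not say whether each came from its own animal.

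The quantity compared was PSI, the fraction of an LSV's reads that use an entry, as a posterior mean of the program MAJIQ over the pooled libraries of a diet. Errors given as ± are posterior SDs, and they cover the counting of reads, not animals. Intervals of a difference are normal intervals (95% coverage) from these SDs. No entry of the tables lies under 0.0125 or above 0.9875, so these values mark the lower and upper limit of the scale, not a measured use of an isoform. Posterior SDs at these limits can be as small as 1.49e-08, so an interval built from a value near a limit may be too narrow. Depth per library is unknown. All 8 hepatocyte markers looked for had an LSV for both diets. So did 1 of 6 macrophage markers, Clec4f, 1 of 5 endothelial markers, Nrp1, and none of 4 stellate and 4 bile duct markers. The tables give no expression levels, so an LSV shows only that a gene was read deeply enough to be quantified.

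The citric acid cycle oxidises acetyl groups in the mitochondrial matrix and passes the electrons to the respiratory chain. Citrate synthase (Cs) joins acetyl-CoA to oxaloacetate, isocitrate dehydrogenase (Idh3a, Idh3b and Idh3g) and the oxoglutarate dehydrogenase complex (Ogdh) release carbon dioxide, and succinyl-CoA ligase (Suclg1 and Suclg2) forms a nucleoside triphosphate. Fumarate hydratase (Fh1) turns fumarate into malate, and malate dehydrogenase (Mdh2) makes oxaloacetate again. In liver the cycle also supplies carbon for glucose and lipid synthesis.

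The sequences below are where the isoforms of these genes part. They were read from GENCODE vM21 transcripts (GRCm38, the build also called mm10) and are written 5′ to 3′ on the strand of the gene. The first pair shows the competing acceptors of Fh1 intron 8, with the last 2 intron bases in capitals, at chr1:175604082-175604111 and chr1:175604225-175604254 on the minus strand.
Fh1 usual acceptor: ttcccgtgcctctcccatAGattaagaatg
Fh1 upstream acceptor: ttctgggtattatactgcAGgattggtagg
The second pair shows what the spliced RNA reads across each junction, with the bases after it in capitals.
Fh1 usual junction: tttaaaccaatgatgATTAAGAATGTGCTG
Fh1 upstream junction: tttaaaccaatgatgGATTGGTAGGAGTGG
Idh3g RNA differs by a 12-base coding exon, exon 3 at chrX:73782298-73782309 on the minus strand, shown in capitals with 9 bases on each side, and is then shown without it.
Idh3g exon kept: atttcctcaCAACAAACAATTcctccatct
Idh3g exon skipped: atttcctcacctccatct
In Ogdh a 91-base and a 103-base coding exon compete, and the first 30 bases of each are given from chr11:6316765-6316794 and chr11:6316978-6317007 on the plus strand.
Ogdh 91-base exon: gtcaggggtcaccacattgcaaaacttgat
Ogdh 103-base exon: atacgagggcaccatgtagcacagctggac
In Idh3a an inner donor leaves out the last 24 bases of coding exon 2, in capitals, which end the stretch chr9:54589891-54589920 on the plus strand.
Idh3a exon 2 end: aaacagGTGACAAGAGGTTTTGCTGGTGGT

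Fh1 (ENSMUSG00000026526, chr1:175600374-175625635, minus strand) carried 3 of the 4 events that JUM listed for the 9 genes. The title line of the JUM table names NC, the labels' short form for chow, as the group set against HFD, but its column of changes names LFD. The changes are given here as HFD minus LFD, and which control group was used could not be settled. Retention of an intron of 1820 bp at chr1:175604235-175606054 rose on HFD by 0.343 in the authors' deposited table (adjusted p = 0.000413). The files do not state which junction reads form the denominator of this JUM value, so 0.343 in the authors' deposited table is not to be read as a share of Fh1 transcripts. It was the largest change in size among the 118 retained introns of the authors' deposited table. A rise was not particular to Fh1: 98 of these 118 introns were higher on HFD, and 42 of the 43 that passed the adjusted p. A second Fh1 intron, of 1634 bp at chr1:175606183-175607816, had a change of 0.0998 and did not pass (adjusted p = 0.188 in the authors' deposited table). The third event was the choice between the acceptors shown above: the upstream one had -0.0174 and the usual one 0.0174 (adjusted p = 0.189 in the authors' deposited table).

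The listed intron does not span the whole of intron 8. In the protein-coding transcript with 10 exons, intron 8 runs for 1963 bp from exon 8 to exon 9. The 1820-bp intron shares its donor but ends 143 bases earlier, at the upstream acceptor. Its ends match no intron of GENCODE vM21, as was so for 2 of the 43 retained introns that passed the adjusted p. Among all 118 listed introns, 10 had no match there. The De Novo column of the authors' PSI tables marks no junction at all, this one included, so the annotation they used may hold it. GENCODE holds transcripts that keep part of each Fh1 intron listed by JUM: Fh1-202 starts 194 bases before exon 9 and Fh1-203 starts 465 bases before exon 8.

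MAJIQ measured the junctions at the same donor. On LFD the upstream acceptor took a PSI of 0.0378 ± 0.0047 and the usual one 0.962. On HFD they took 0.0125 ± 0.00051 and 0.987. The difference of -0.0253 had an interval from -0.0347 to -0.0159. The HFD value sits at the lower limit of the scale, so the true use on HFD may be lower and no ratio is given. The interval may also be too narrow, since posterior SDs shrink at the limit. JUM and MAJIQ gave the upstream acceptor the same sign, in tables from the same study and so not independent.

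The junction that shares both ends with the 1820-bp intron thus took under 0.05 of the splicing of its donor on each diet. The match was made after the values were seen. Of 88 listed introns whose junction was in both PSI tables, 10 had such a low PSI on LFD and 54 had at least 0.9. Among the 26 of these that passed the adjusted p, Fh1 was the only gene with a PSI of at most 0.05 on LFD. Introns of Errfi1 and Fdx1 that also passed lay just above this cut, with 0.0518 and 0.0579 on LFD. A low PSI of the matching junction was thus not particular to Fh1. The junction across the 1634-bp intron, which is intron 7, was at the upper limit of 0.987 on both diets. The part of the low-use junction to the upstream acceptor in the change of 0.343 was not tested. MAJIQ has no retained intron entry in any of the 7 Fh1 LSVs.

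**Figure D1:**
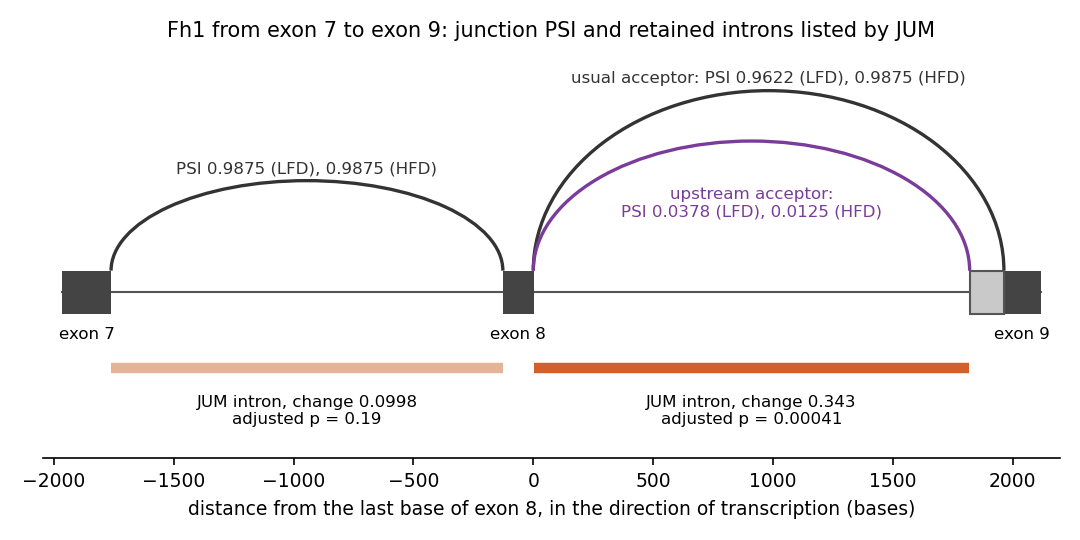
Fh1 from exon 7 to exon 9, drawn to scale as distance in bases from the last base of exon 8. Dark boxes are exons, the light box is the 143 bases added by the upstream acceptor, arcs are junctions with their PSI on LFD and HFD, and the bars are the retained introns of the authors' JUM table (dark bar: adjusted p under 0.05). The intron with the change of 0.343 ends at the upstream acceptor, whose PSI is 0.0378 on LFD.

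The upstream acceptor changes the reading frame. It adds 143 bases, which is not a multiple of 3, and exon 8 ends on a whole codon after 1227 of 1521 coding bases. An in-frame stop codon begins at base 7 of the added sequence, visible as TAG in the capitals of the upstream junction above. Of the last 20 intron bases, 15 are pyrimidines before the usual acceptor and 11 before the upstream one, and both windows end in AG. These counts describe the letters of the windows, not the strength of a site.

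The other Fh1 entries hardly differed between the diets. In the LSV of exon 2, the junction from exon 1 had 0.949 ± 0.0128 on LFD and 0.943 ± 0.0128 on HFD. A junction of the same LSV from a donor inside intron 1, absent from GENCODE vM21, had 0.0474 ± 0.0124 and 0.0561 ± 0.0129. The difference of 0.00874 had an interval from -0.0263 to 0.0438. Of the 18 Fh1 entries, 14 were within 0.0005 of a limit on both diets.

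**Figure D2:**
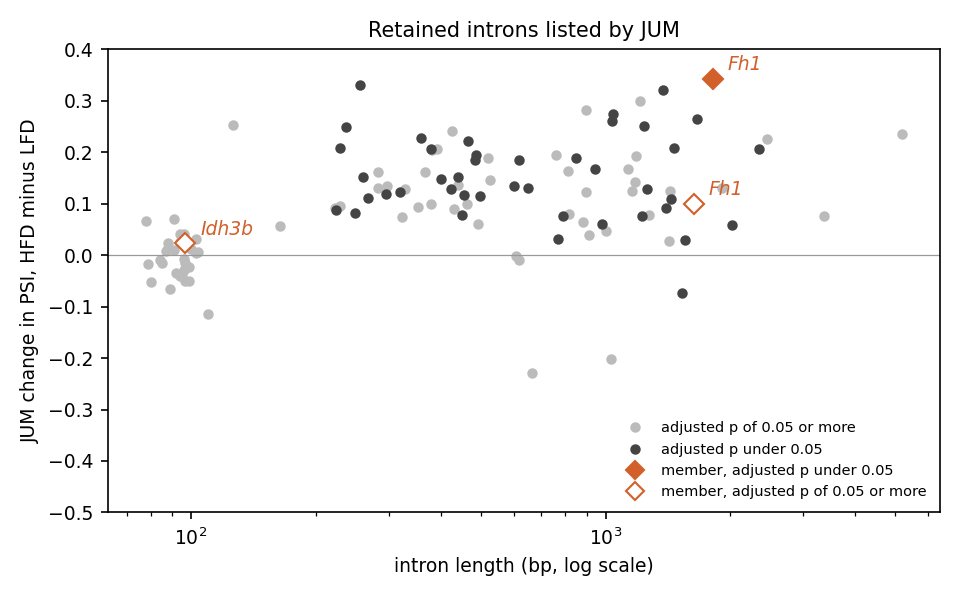
Change in PSI (HFD minus LFD) of the 118 retained introns in the authors' JUM table against intron length on a log axis, with 1 point per intron. Diamonds are the members' introns: the 1820-bp Fh1 intron at 0.343 lies highest, and the 97-bp Idh3b intron lies in the cluster of short introns around 0.

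Across the 9 genes, 1 of the 4 JUM events passed the adjusted p in the authors' deposited table, where 17.7% of all 470 listed events and 36.4% of the listed retained introns passed. Every listed retained intron and every member event had a JUM p under 0.05 before adjustment. These are thus shares of listed events, not of all events tested. The members entered through the JUM contrast, so nothing is read from the count of 1 event. The remaining event was the 97-bp intron of Idh3b between exons 6 and 7, at chr2:130281541-130281637, with a change of 0.0226 in the authors' deposited table (adjusted p = 0.384). MAJIQ placed that intron at the lower limit of 0.0125 on both diets, seen from either of its exons. The other 7 genes had no listed JUM event, and 5.7% of all genes had one.

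By MAJIQ no member stood out. The rule for a call asked for a difference of at least 0.2 whose interval does not include 0. None of the 90 entries passed, where 0.417% of all entries passed, and none of the 9 genes, where 2.31% of all genes passed. The authors' deposited table of LSVs that differ between the diets lists no member LSV, against 0.36% of the LSVs present for both diets. With 38 LSVs, counts of 0 are near these shares. The largest difference per LSV had a median of 9.62e-06 over the members and 0.00681 over all LSVs. Entries within 0.0005 of a limit on both diets made up 61.1% of the members' entries and 35.5% of all entries.

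Smaller differences were in Ogdh, Idh3g, Idh3b and Fh1. With a size of at least 0.1 in place of 0.2, none of the 90 entries passed, against 2.87% of all. With a size of at least 0.05 in place of 0.2, 2 of 90 entries passed (2.22%, against 7.1% of all entries), both in 1 LSV of Ogdh. With at least 0.02, 10 entries in 6 LSVs passed, 4 higher and 6 lower on HFD. Their share of 11.1% is close to the 10.1% of all entries. The 10 entries are not separate events. Shares of an LSV sum to about 1, and the Idh3b and Idh3g entries include the same junction or stretch seen from both ends. Nothing is therefore read from the split into higher and lower. The size of 0.02 was read after the values were known.

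**Figure D3:**
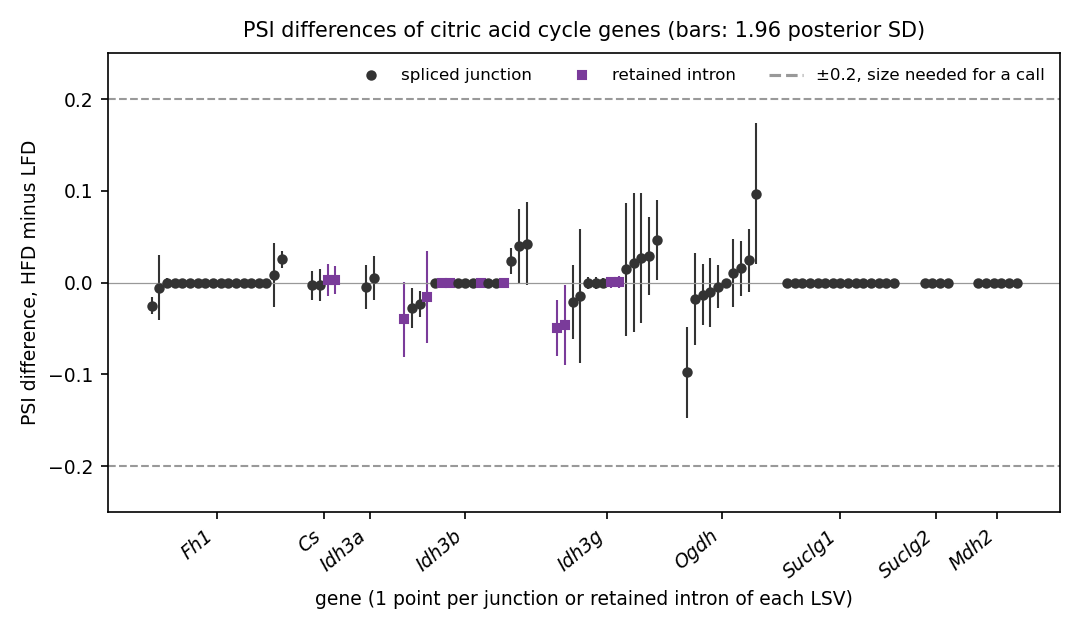
PSI difference (HFD minus LFD) of each of the 90 entries, grouped by gene, with bars for the interval of the difference (95%). Circles are spliced junctions, squares are retained introns and the dashed lines mark the size of 0.2 that a call needs. All points lie between -0.0978 and 0.0972, and those of Suclg1, Suclg2 and Mdh2 lie at 0.

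In the order of the cycle, citrate synthase (Cs, ENSMUSG00000005683, chr10:128337734-128362479) comes first. It had 2 LSVs, the ends of the intron between exons 8 and 9 at chr10:128359300-128359433. From exon 8, retention was 0.0125 ± 0.00036 on LFD and 0.0154 ± 0.0080 on HFD, and from exon 9 it was 0.0129 ± 0.0032 and 0.0155 ± 0.0082. Both intervals of the difference include 0. Retention of this intron was thus near the lower limit on either diet.

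Isocitrate dehydrogenase is built from the catalytic subunit Idh3a and the subunits Idh3b and Idh3g. Idh3a (ENSMUSG00000032279, chr9:54586334-54604661) had 1 LSV, the choice of donor in exon 2. The inner donor, which leaves out 24 bases and keeps the frame, was used at 0.0181 ± 0.0110 on LFD against 0.0135 ± 0.0055 on HFD. That difference of -0.00459 lies within 1 posterior SD. In the exon end printed above, the capitals begin with the GT that starts the longer intron.

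Idh3b (ENSMUSG00000027406, chr2:130279309-130284547, minus strand) varied at its 3′ end. Its last exon contains, after the coding part, a stretch of 118 bp at chr2:130279438-130279555 that can be spliced out. Among the 3 ways into the final part of the exon, the stretch was kept in 0.872 ± 0.0168 of the reads on LFD and 0.857 ± 0.0194 on HFD. It was spliced out in 0.0853 ± 0.0140 and 0.128 ± 0.0185, an isoform that GENCODE vM21 marks for nonsense-mediated decay. The difference of 0.0425 had an interval from -0.00299 to 0.0879, which includes 0. Seen from the part of the exon before it, the stretch was spliced out in 0.0672 ± 0.0115 on LFD and 0.107 ± 0.0172 on HFD. That difference of 0.0400 had an interval from -0.000627 to 0.0805, which also includes 0.

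The third way joins exon 11 directly to the final part, leaving out the usual end of the coding sequence. It had 0.0416 ± 0.0097 on LFD and 0.0139 ± 0.0057 on HFD, a difference of -0.0278 with an interval from -0.0498 to -0.00578. Seen from exon 11 the same junction had 0.0363 ± 0.0070 and 0.0128 ± 0.0025, with an interval from -0.0380 to -0.00902. Both views were lower on HFD, but they share reads of that junction, and the HFD values lie near the lower limit. The other 5 Idh3b LSVs, among them both ends of the 97-bp intron named above, stayed at the limits.

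Idh3g (ENSMUSG00000002010, chrX:73778963-73786897, minus strand) used both forms of a small coding cassette exon on each diet. Its 12-base exon 3 can be left out without a shift of the frame. From exon 2, the junction into exon 3 was at 0.791 ± 0.0250 on LFD and at 0.776 ± 0.0276 on HFD, and the junction that skips it was at 0.209 and 0.224. The difference of 0.0144 at the skipping junction had an interval from -0.0586 to 0.0873. From exon 4, the skipping junction had 0.199 ± 0.0238 and 0.226 ± 0.0271. Both intervals include 0, and they leave room for a difference of up to 0.0974.

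MAJIQ also listed a retained stretch of 78 bp in the 194-bp intron 3 of Idh3g, at chrX:73782220-73782297. It lies between the 12-base exon and base 73782219, where the annotated retained intron transcript Idh3g-203 starts, and had the largest difference of the members' 12 retained intron entries. From exon 4 its retention was 0.0640 ± 0.0137 on LFD and 0.0147 ± 0.0071 on HFD, a difference of -0.0493 with an interval from -0.0795 to -0.0191. From the other end it was 0.0823 ± 0.0173 and 0.0358 ± 0.0141, with an interval from -0.0902 to -0.00271. This stretch was lower on HFD from both ends. Both views are of the same stretch and so not independent, and the HFD value from exon 4 lies near the lower limit. The direction is opposite to that of the Fh1 introns listed by JUM, which are given in another measure. JUM lists no event of Idh3g. The alternative first exon of Idh3g, joined to exon 2, had 0.0476 ± 0.0146 and 0.0267 ± 0.0143, with an interval that includes 0.

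Ogdh (ENSMUSG00000020456, chr11:6291633-6356642), the E1 subunit of its complex, had the largest PSI differences of the 9 genes in the MAJIQ tables. They concern the first exon, in the 5′ UTR, since translation starts in exon 2. Use of the main donor of the first exon, at base 6291693, was 0.788 ± 0.0287 on LFD and 0.886 ± 0.0271 on HFD. The donor 76 bases further on, at base 6291769, had 0.117 ± 0.0221 and 0.0194 ± 0.0122. The differences were 0.0972, with an interval from 0.0198 to 0.175, and -0.0978, with an interval from -0.147 to -0.0485. Shares of an LSV sum to about 1, so the higher use of the former on HFD and the lower use of the latter are not independent. Both intervals leave out 0, but both sizes are under 0.2, so neither was called. The HFD value of the donor at base 6291769 lies near the lower limit.

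Further first exons of Ogdh were rarely used. The exon ending at base 6292291 had 0.0661 ± 0.0172 on LFD and 0.0485 ± 0.0189 on HFD, the one ending at 6292513 had 0.0129 ± 0.0032 and 0.0373 ± 0.0174 and the one ending at 6292714 had 0.0179 ± 0.0105 and 0.0136 ± 0.0054. Each of these 3 intervals includes 0. The effective read number, PSI × (1 − PSI) / variance − 1, was 202 on LFD and 137 on HFD at the main donor. For comparison it had a median of 264 and 231 over 4 entries of Idh3g, and it was 396 and 324 at the 118-bp stretch of Idh3b. This number was lowest at the Ogdh donor among these, and the posterior SDs themselves are those given with each value.

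The competing coding exons of Ogdh, printed above, were used very unequally. The 103-base exon had 0.971 ± 0.0129 on LFD and 0.960 ± 0.0139 on HFD at its upstream junction, and 0.981 ± 0.0111 and 0.968 ± 0.0129 at its downstream junction. The 91-base exon had 0.0295 ± 0.0129 and 0.0401 ± 0.0139 upstream, and 0.0157 ± 0.0083 and 0.0312 ± 0.0130 downstream. All 4 intervals of the difference include 0. The junction from a further 45-base exon was at the lower limit on both diets.

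**Figure D4:**
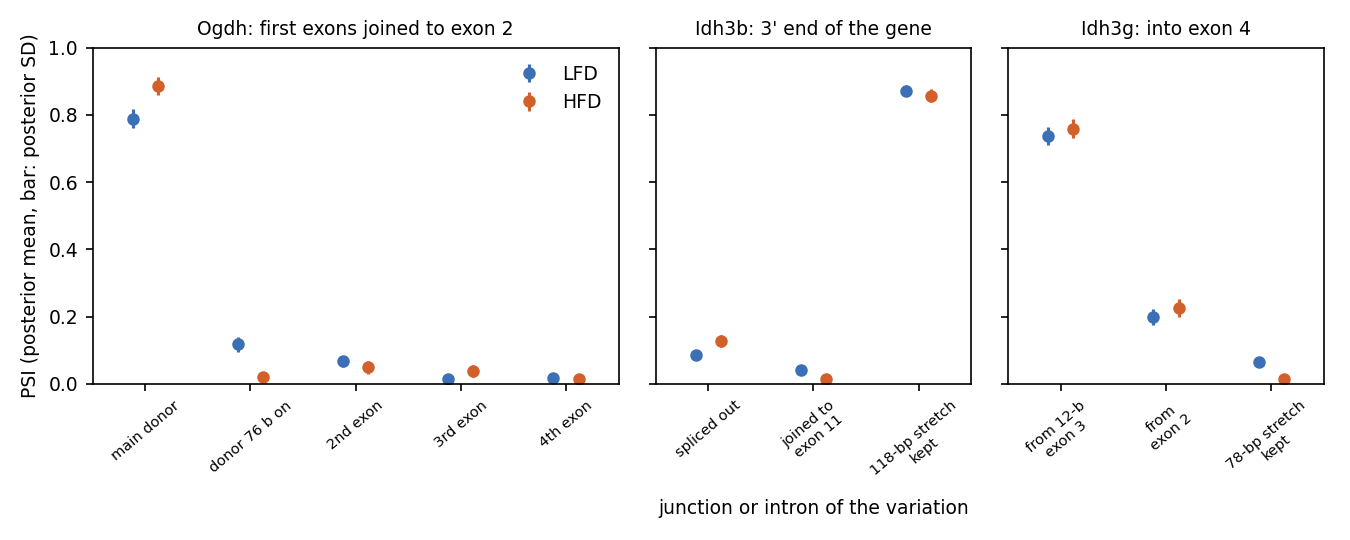
PSI on LFD (blue) and HFD (orange) for the junctions and introns of 1 LSV each of Ogdh, Idh3b and Idh3g, with bars of 1 posterior SD over reads of the pooled libraries. The 2 diets lie furthest apart at the first donors of Ogdh, where the main donor has 0.788 and 0.886.

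Succinyl-CoA ligase and malate dehydrogenase stayed at the limits of the scale. Suclg1 (ENSMUSG00000052738, chr6:73248382-73276911), the subunit shared by both forms of the ligase, had 6 LSVs with 15 entries. Suclg2 (ENSMUSG00000061838, chr6:95473009-95718800), the subunit of the GTP-forming enzyme, had 2 LSVs with 4 entries. Mdh2 (ENSMUSG00000019179, chr5:135778480-135790398) had 3 LSVs with 6 entries. All 25 entries were within 0.0005 of a limit on both diets, so 1 junction of each LSV took nearly all reads. The largest difference of Suclg1 was -1.24e-06, at the junction between bases 73248753 and 73256171. That of Suclg2 was 1.13e-08, between bases 95595753 and 95655458, and that of Mdh2 was -5.44e-09, between bases 135778801 and 135783305.

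Of 56 other gene names of the cycle, its feeder enzymes and its carriers, 42 had an LSV for both diets. None of the 42 passed the PSI rule at 0.2, and 3 (Got1, Pdk4 and Dhtkd1) passed at 0.1, where 13.4% of all genes did. None was listed in the authors' deposited table of differing LSVs. Got1, the cytosolic aspartate aminotransferase of the malate-aspartate shuttle, was the 1 gene with JUM events past the adjusted p, against 1.05% of all genes. Retention of a 2350-bp Got1 intron rose by 0.207 and of a 295-bp intron by 0.119 in the authors' deposited table (adjusted p = 1.2e-15 and 8.3e-05). Most retained introns listed there rose on HFD as well. Inclusion of its 151-base cassette exon fell by 0.0158 in the authors' deposited table (adjusted p = 0.0041). By MAJIQ a further Got1 intron, chr19:43504688-43504775, was retained at 0.0569 ± 0.0110 on LFD and 0.188 ± 0.0192 on HFD, seen from the exon before it. Seen from the exon after it, the values were 0.0409 ± 0.0086 and 0.126 ± 0.0165, a smaller difference of 0.0851 against 0.131. Per gene, the largest PSI difference had a median of 0.00459 over the 9 members, 0.0160 over the 42 and 0.0310 over all genes.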

How the data were processed

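Hepatocyte mRNA was made into stranded libraries, 3 per diet, per the labels' protocols, and titles gave the diet. The submitters' processing notes name FastQC, STAR and the build mm10, without versions. PSI (fractions from 0 to 1) and posterior variances were deposited per diet by the authors as written by voila, the viewer of MAJIQ, per the file headers. The authors also deposited a table of differing LSVs and a JUM table of events with p-values and adjusted p-values, per the file headers. The JUM title line names NC, while its column of changes names HFD minus LFD, which was followed. The link column of the table of differing LSVs names a run folder called strict.

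LSVs were matched between diets by their ID, and the direction of an LSV was taken from its type and strand. JUM positions were found to count from 0 and are given 1-based. A PSI difference was called at a size of at least 0.2 with a normal interval (95% coverage, SD from both posterior variances added) that leaves out 0, over all entries. Annotation and sequences came from GENCODE vM21 (GRCm38). No test over animals was possible. The rule was tested on simulated data. That test used mid-range PSI only, with noise drawn from the posterior SDs. It therefore cannot speak for entries near the limits or for spread between libraries. Python 3.11.15 and matplotlib 3.10.9 were used. All members, the largest entry of each, each JUM event and pathway genes past a rule were named. The members and lists were chosen with earlier results of these data known.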

Additional observations from a re-analysis of the deposited data

How the results depend on the processing

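No paired analysis was possible because no table gives values per library, and for the same reason no replicate could be left out. The count of 0 member entries past the PSI rule was also found with a size of 0.1, and a size of 0.05 gave 2 entries, both of Ogdh. Asking for 3 posterior SDs, for a posterior SD of at most 0.05, for each junction once or for spliced junctions only can only remove calls, so their counts of 0 say nothing about stability. The same is true of a listed probability of at least 0.95 in the authors' deposited table of differing LSVs, which holds no member and gives high probabilities of a large change to junctions whose listed difference is near 0. The 1 JUM event past the adjusted p, of Fh1, also passed at 0.01, and all listed events make 4. The median largest difference per member LSV was 2.53e-07 in source and 0.000408 in target LSVs, and the cause was not tested. Pathway genes past a rule went from 1 to 3 with a PSI size of 0.1 (Got1, Pdk4 and Dhtkd1) and to 3 with all listed JUM events (Got1, Glud1 and Acly). Depth per library is unknown, which limits what can be said of precision.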

Other observations

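Pdk4, the pyruvate dehydrogenase kinase that slows entry of pyruvate into the cycle, and Dhtkd1, a relative of Ogdh that acts in lysine breakdown, had PSI differences between 0.1 and 0.2. They were named after their values were seen. Seen from the exon before it, the Pdk4 intron chr6:5491678-5491829 had a retention of 0.0130 ± 0.0035 on LFD but 0.175 ± 0.0492 on HFD, with posterior SDs as errors. Seen from the exon after it, the same intron had 0.0130 ± 0.0035 and 0.0580 ± 0.0321. In that view the difference of 0.0450 had an interval that includes 0. The LFD values of this intron lie near the lower limit of the scale. In Dhtkd1 the junction from base 5921665 to base 5919797 on chromosome 2 had 0.138 ± 0.0371 on LFD and 0.0141 ± 0.0068 on HFD. That HFD value also lies near the lower limit. None of these values has a spread between animals.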
